A study of Homo sapiens with 6 samples.

Results

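The comparison described here sets PC9 cells exposed to a lentivirus with a scrambled shRNA against PC9 cells given no virus. PC9 is a long-used cell line from a human non-small cell lung cancer whose EGFR carries an activating mutation. Messenger RNA was captured cell by cell with Drop-seq, in which droplets hold a cell and a barcoded bead, and each captured molecule carries a unique molecular identifier (UMI). Barcodes were kept as cells where they held at least 500 UMIs with at most 20% of them from mitochondrial genes. This left 263 barcodes in the scrambled library and 1166 in the untreated library, of 2288 in all 6 libraries of the series. Each condition has 1 library, so no value below has a replicate, and the intervals given are 95% intervals of counting error only.

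The scrambled group was transduced overnight with 100 µL of pLVTHM-shsc-GFP stock in medium with 7.5 µg/mL polybrene. It was then moved to medium with 10% serum and received no erlotinib. The untreated group had neither virus nor drug, and the growth medium is given with 5% serum. Virus, polybrene, serum and the handling of the transduction therefore go together in this pair and cannot be told apart. The labels do not give the day on which the scrambled cells were collected, nor a selection for transduced cells. The other 4 libraries, used below as side values, all received erlotinib (2 µM, 1 day), which blocks EGFR signalling. Besides it, they had CPI-455 (an inhibitor of KDM5 histone demethylases), KDM5A shRNA, KDM5A and KDM5B shRNA (both in pLVTHM), or KDM5A cDNA in pLenti. CPI-455 was given at 6.25 µM for 4 days. Erlotinib started on day 4 after transduction with KDM5A shRNA, day 5 with both shRNAs and day 6 with KDM5A cDNA.

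Cells control their own supply of sterols and fatty acids through the SREBP transcription factors. When sterol in the endoplasmic reticulum is low, SCAP carries the SREBP precursors to the Golgi, where they are cut, and the freed factors raise the genes of cholesterol synthesis, fatty acid synthesis and lipoprotein uptake. When sterol is plentiful, or is brought in with serum lipoproteins, INSIG proteins hold the precursors back. A scrambled shRNA has no intended target, so such a library serves as the control for transduction itself.

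The 2 libraries differed in their barcodes and in depth before any gene was compared. The scrambled library held 1294422 UMIs with a median of 3343 per barcode, and the untreated library 3956647 UMIs with a median of 1493.5. Mitochondrial transcripts made up 5.03% and 3.98% of UMIs. Of the kept barcodes, 60 ended in an undetermined base N in the scrambled library and 41 in the untreated library. In the untreated library, 573 barcodes (49.1%), which held 16.8% of its UMIs, shared their first 11 bases with another kept barcode. Among them were 127 sets of 4 that ran through 4 different last letters. The scrambled library had 4 sets of 2. An example from the untreated library is shown to make this visible, with the last letter in capitals.
taaaggtgtgcN: 2593 UMIs
taaaggtgtgcA: 2173 UMIs
taaaggtgtgcG: 2039 UMIs
taaaggtgtgcC: 2001 UMIs
After merging barcodes with the same first 11 bases, the untreated library had 860 cells with a median of 3104 UMIs and the scrambled library 261 cells with a median of 3474. Values per gene are sums over barcodes, and values per cell are given below with and without merging. No kept barcode was shared between the scrambled and the untreated library.

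Both libraries carried the markers of an epithelial line. EPCAM, an epithelial adhesion protein, was at 1002 CPM (the UMIs of a gene scaled to a common library total) in the scrambled and 727 CPM in the untreated library, and KRT7, a simple-epithelium keratin, at 2342 and 2686 CPM. NKX2-1, a lung lineage factor, had 0 UMIs in both. The 10 immune markers summed to 43.3 and 33.1 CPM, which was nearly all CD68 (42.5 and 32.1 CPM), a gene that is not specific to immune cells. The fibroblast, endothelial and erythroid lists were each at or below 4.64 CPM in both libraries. KDM5A, the target of the study's other shRNA, was at 81.9 CPM in the scrambled and 121 CPM in the untreated library. Its level was 56.4 CPM with KDM5A shRNA, 41.3 CPM with both shRNAs, 120 CPM with CPI-455 and 164 CPM with KDM5A cDNA. KDM5B was at 46.4 and 60.4 CPM in the scrambled and untreated libraries, and EGFR at 350.0 and 338 CPM (log2 ratio 0.05, interval -0.11 to 0.20).

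Most transcripts differed by less than 2-fold. A gene was tested where the mean of its 2 levels was at least 20 CPM, and it was called where the levels differed at least 2-fold and the interval of the ratio excluded 1. Of 6729 genes tested, 173 were called higher in the scrambled library (2.57%) and 323 lower (4.8%). The median log2 ratio was -0.03, and 92.6% of the genes lay within 2-fold. With no limit on the size of the difference, the interval excluded 1 for 2990 of the 6729 genes.

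The group of genes that stood lowest in the scrambled library, relative to the untreated library, was lipid synthesis. Of 40 tested genes on 4 lists (the mevalonate pathway, the sterol enzymes after squalene, the SREBP regulators with sterol uptake, and fatty acid synthesis), 27 were called lower (67.5%, against 4.8% of all genes tested) and 0 higher. Their summed level was 2547 CPM in the scrambled and 6812 CPM in the untreated library, a log2 ratio of -1.42 (interval -1.47 to -1.37). Their median log2 ratio was -1.63, against -0.03 over all genes tested. These lists were drawn up with earlier results of these data known, so their direction is a description of this pair.

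SCD and FADS2, which desaturate fatty acids, were among the 15 lowest genes of all. SCD, the desaturase that makes oleate and palmitoleate, had 16 UMIs in the scrambled library and 1094 in the untreated library, or 12.4 and 276 CPM. This is a 22.4-fold lower level, with a log2 ratio of -4.48 (interval -5.30 to -3.78). FADS2, which starts the desaturation of polyunsaturated fatty acids, stood at 19.3 and 313 CPM (log2 ratio -4.02, interval -4.65 to -3.45). FADS1, the next desaturase of that route, was at 123 and 354 CPM (log2 ratio -1.53). The enzymes that build the chain were lower too: FASN, the fatty acid synthase, was at 64.9 and 237 CPM, and ACACA, which makes its malonyl-CoA substrate, at 22.4 and 68.5 CPM. Among the enzymes that activate acyl chains, ACSL3 was at 182 and 630 CPM, ACSL1 at 12.4 and 49.0 CPM and ACSL4 at 79.6 and 172 CPM. ACSS2, which makes acetyl-CoA from acetate, was at 13.1 and 46.0 CPM. With cells thinned to 1000 UMIs, ACSL1 lost its call (log2 ratio -0.99). In all, 9 of the 15 tested genes of fatty acid synthesis were called lower. ELOVL6, which elongates palmitate, lay on the other side without a call, at 65.7 CPM in the scrambled and 38.9 CPM in the untreated library (log2 ratio 0.75). ME1, a source of NADPH for lipid synthesis, stood at 161 and 197 CPM (log2 ratio -0.29).

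Cholesterol synthesis was lower at most of its measured steps. In the mevalonate pathway 9 of 11 genes were called lower, with a median log2 ratio of -1.65. HMGCS1, which condenses acetyl units into HMG-CoA, was at 88.8 CPM in the scrambled and 416 CPM in the untreated library (log2 ratio -2.23, interval -2.51 to -1.95). IDI1, the isopentenyl isomerase, stood at 48.7 and 219 CPM, MVD at 30.9 and 143 CPM and FDFT1, the squalene synthase, at 121 and 408 CPM. FDPS and SQLE had the smallest called decreases of this list, with log2 ratios of -1.26 and -1.07. The call of SQLE was lost with cells thinned to 1000 UMIs (log2 ratio -0.98) and without barcodes ending in N (-0.88). The 2 genes without a call were GGPS1 (log2 ratio -0.52) and PMVK (log2 ratio 0.17). Beyond squalene, 4 of 5 tested genes were called lower. Among them were DHCR7, the last reductase of the route (log2 ratio -2.32), LSS (-2.29) and MSMO1 (-2.11). LBR, a sterol reductase that is also a receptor of the nuclear lamina, had a log2 ratio of -0.10 (interval -0.31 to 0.10).

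Of the 9 tested regulators and uptake genes 5 were called lower. SREBF2, the SREBP that favours sterol genes, was at 20.1 CPM in the scrambled and 94.5 CPM in the untreated library (log2 ratio -2.23, interval -2.87 to -1.66). SREBF1, the form that favours fatty acid genes, was at 18.5 and 91.7 CPM (log2 ratio -2.31, interval -2.97 to -1.71). INSIG1, itself an SREBP target, was at 31.7 and 189 CPM. SCAP, the carrier, was at 23.2 and 24.5 CPM, and INSIG2, the relative of INSIG1, at 43.3 and 74.6 CPM (log2 ratio -0.79). Neither was called.

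**Figure D1:**
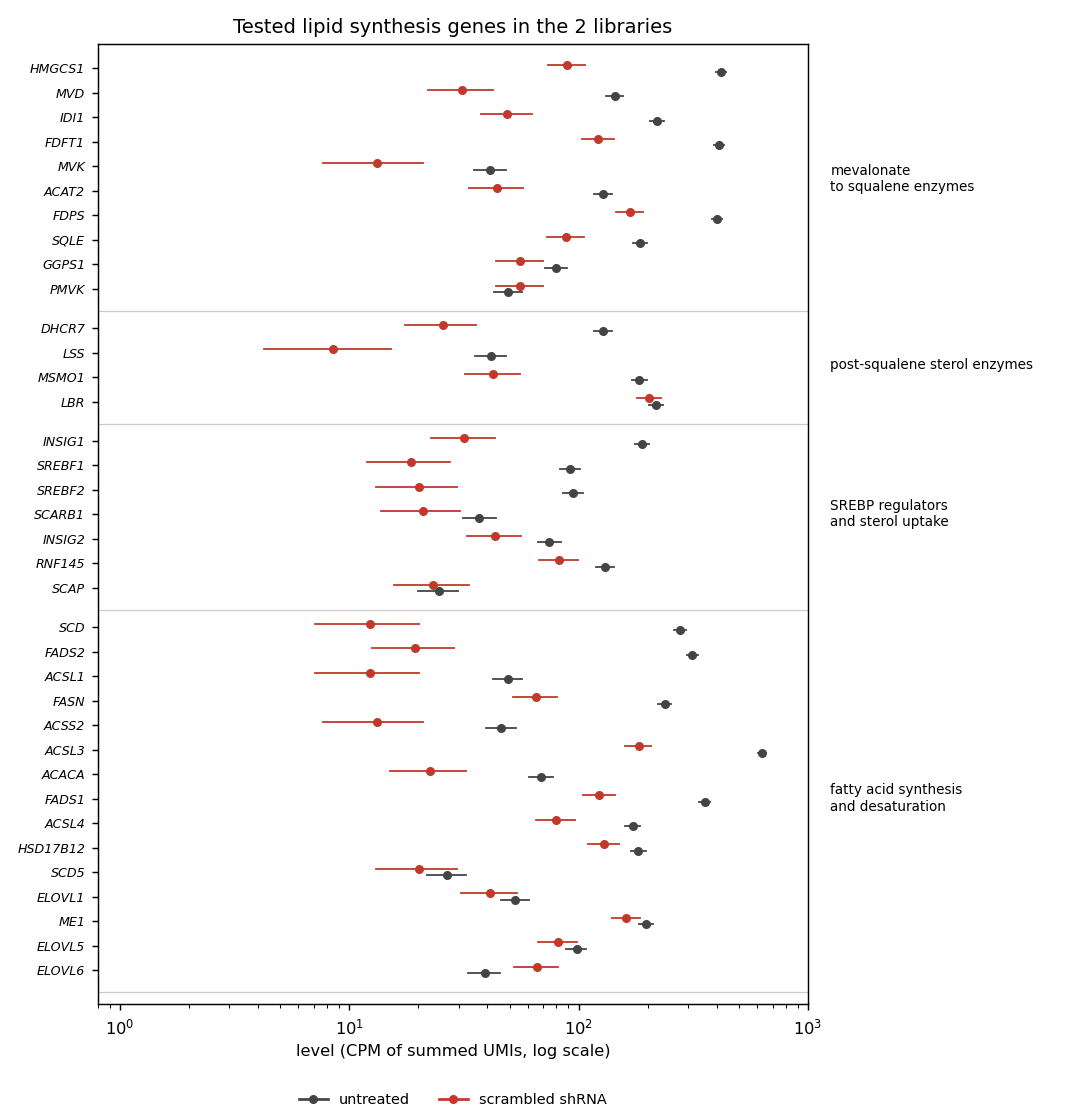
Levels of 36 of the 40 tested lipid synthesis genes in the untreated (grey) and scrambled (red) libraries, in CPM of summed UMIs on a log axis, with 95% Poisson intervals of counting error and genes ordered within each list by their ratio. For SCD and FADS2 the red points lie more than 10-fold to the left of the grey ones, while LBR, SCAP and PMVK have overlapping intervals.

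The promoter windows of these genes were searched because the members moved together. The windows come from RefSeq (GRCh38.p14) and run from 250 bases before to 50 after the start of a gene. Of 25 tested genes on the 3 sterol lists, 17 matched by symbol, with 28 windows. The sterol element was searched as TCACNCCAC and the CCAAT box as CCAAT, each on both strands, and the 2 motifs share no bases in the windows printed. The sterol element occurred in 1 of the 28 windows (3.57%), that of SREBF2, and in 75 of 7364 windows of all genes tested (1.02%). A CCAAT box occurred in 13 of the 28 (46.4%) and in 2553 of 7364 (34.7%). The SREBF2 window, chr22:41832855-41833154 on the plus strand, is printed as the match, with the sterol element at -133 and the CCAAT box (read on the other strand) at -106 in capitals. The SCD window, chr10:100346983-100347282 on the plus strand, is printed as that of the gene with the largest decrease, chosen after its values were seen, with CCAAT boxes at -229 and -186 in capitals. A match is a stretch of letters and no evidence of binding.
SREBF2: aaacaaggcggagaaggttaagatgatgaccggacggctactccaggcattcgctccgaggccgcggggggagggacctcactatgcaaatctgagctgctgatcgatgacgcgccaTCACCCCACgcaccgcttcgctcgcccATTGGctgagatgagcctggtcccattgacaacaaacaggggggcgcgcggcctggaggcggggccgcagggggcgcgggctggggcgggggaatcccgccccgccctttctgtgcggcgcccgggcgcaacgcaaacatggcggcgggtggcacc
SCD: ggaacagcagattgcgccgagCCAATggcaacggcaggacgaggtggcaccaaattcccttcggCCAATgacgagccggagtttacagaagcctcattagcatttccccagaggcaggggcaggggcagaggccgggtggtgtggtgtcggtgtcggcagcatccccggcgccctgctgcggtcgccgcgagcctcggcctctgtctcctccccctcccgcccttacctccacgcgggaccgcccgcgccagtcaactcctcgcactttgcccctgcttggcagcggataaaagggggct

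Neighbouring routes of lipid metabolism were compared as well. The 10 tested genes of lipid droplets and fatty acid oxidation held 0 calls, with a median log2 ratio of -0.13. Of all genes tested, 2.57% were called higher and 4.8% lower. The genes of the LXR receptors, which sense oxysterols, had no call, with NR1H2 at 34.8 and 46.8 CPM and NR1H3 at 19.3 and 23.3 CPM. The LXR targets on the same list were below the level for a test, and the 8 listed genes together had 95 and 479 UMIs (log2 ratio of CPM -0.72, interval -1.06 to -0.40). Among 8 tested genes of phospholipid and triglyceride synthesis, 2 were called lower (25%, against 4.8% of all genes tested). They were LPIN1, a phosphatidate phosphatase, at 26.3 and 106 CPM, and PCYT2, of phosphatidylethanolamine synthesis, at 12.4 and 43.0 CPM. The call of PCYT2 was lost with cells thinned to 1000 UMIs (log2 ratio -0.96). PNPLA3, a lipid droplet protein that is not on these lists, was among the 15 lowest genes of all, at 6.18 CPM in the scrambled and 62.9 CPM in the untreated library.

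**Figure D2:**
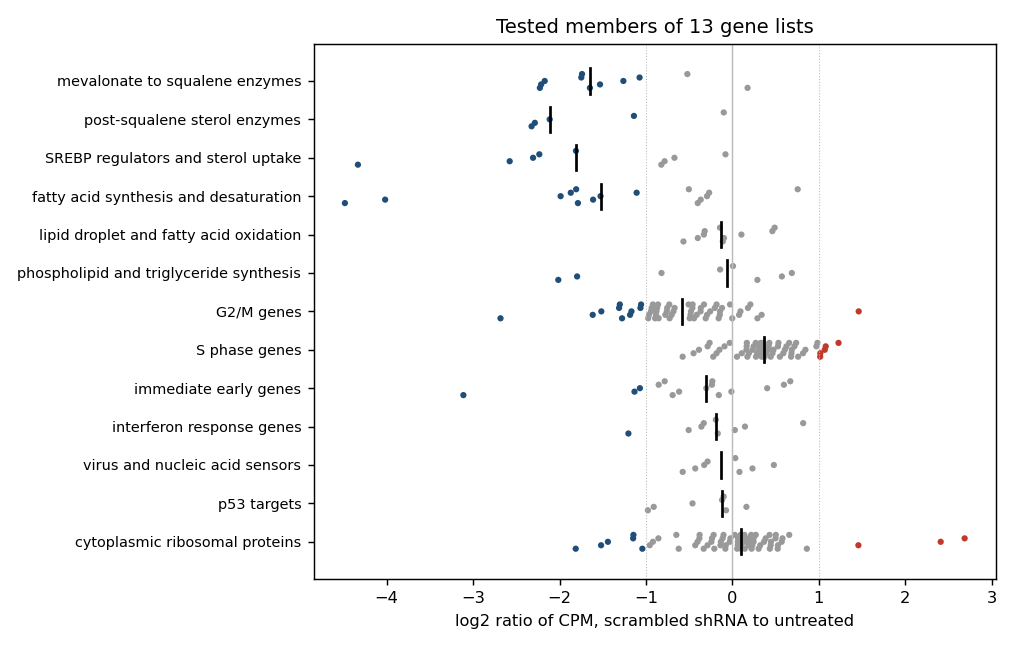
Log2 ratios of CPM, scrambled to untreated, for the tested members of 13 gene lists, 1 point per gene, with a black bar at each median; blue and red points are genes called lower and higher, and dotted lines mark 2-fold. The 4 lipid synthesis lists have medians of -1.53 or below, and the lists of lipid droplets, virus sensors and p53 targets hold no called gene. Of all genes tested, 2.57% were called higher and 4.8% lower.

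The decrease was spread over the cells. After each cell was thinned to 1000 UMIs, 222 scrambled cells remained (41 shallower ones were left out) and 822 untreated cells (344 left out). A cell held 2.63 UMIs of the 4 lipid lists on average in the scrambled library and 7.05 in the untreated library, with medians of 2 and 7. No UMI of these lists was seen in 11.3% of scrambled and 0.365% of untreated cells. At least 10 were seen in 0 of 222 scrambled cells, which allows a share of up to 1.35%, and in 192 of 822 untreated cells (23.4%). The highest cell held 8 in the scrambled and 21 in the untreated library. Thus the upper part of the untreated range was not seen among the scrambled cells. With barcodes of the same first 11 bases merged, the averages were 2.50 and 6.83 UMIs per cell, 11.7% and 0.552% of cells had none, and 1 of 222 scrambled cells reached 10, as did 153 of 725 untreated cells.

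The lower level was found in cells with few and with many mitotic transcripts. Among cells with 0 to 2 G2/M UMIs, the lipid lists averaged 2.42 UMIs in 26 scrambled cells and 7.31 in 222 untreated cells. Among cells with 10 or more G2/M UMIs, they averaged 2.64 in 59 and 6.82 in 343 cells. With barcodes merged these averages were 2.95 and 7.12 for few, and 2.41 and 6.53 for many G2/M UMIs. For S phase UMIs of 10 or more, the averages were 2.71 in 63 and 6.96 in 141 cells (2.85 and 6.59 merged). SCD alone was seen in 2.25% of scrambled cells (exact binomial interval 0.735% to 5.18%) and in 27.0% of untreated cells (24.0% to 30.2%), and with barcodes merged in 0.450% and 26.6%. These intervals treat cells as counts within 1 library and are no test of the condition.

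**Figure D3:**
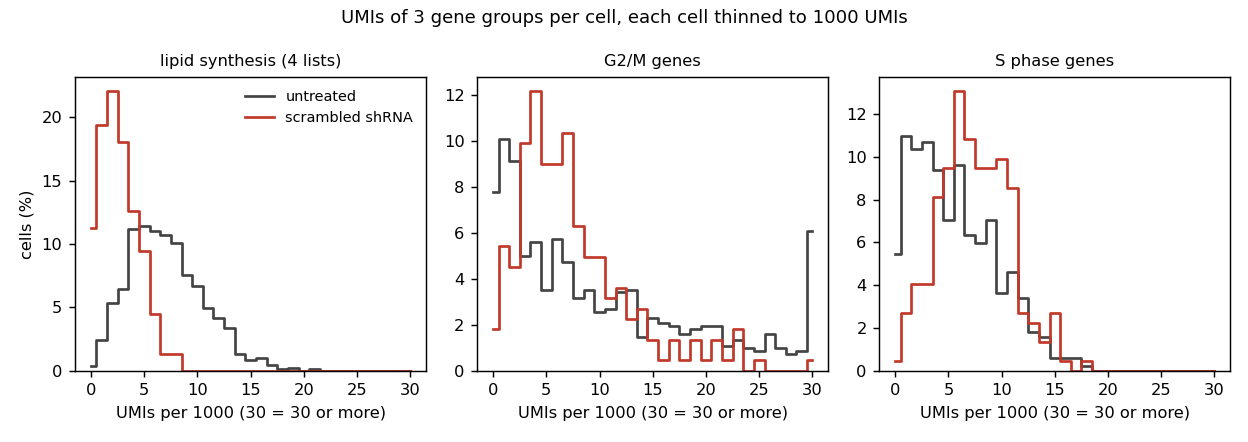
Share of cells (%) by the number of UMIs of 3 gene groups in a cell thinned to 1000 UMIs, for 222 scrambled (red) and 822 untreated cells (grey); 30 stands for 30 or more. The red lipid curve ends at 8 UMIs where the grey one runs to 21, while the G2/M and S phase curves overlap over most of their range.

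Beside the pair, the other libraries show where these levels lie in the series. The summed lipid lists stood at 2243 CPM with KDM5A shRNA, 1932 CPM with both shRNAs, 3602 CPM with CPI-455 and 5079 CPM with KDM5A cDNA. The 3 libraries made with pLVTHM were thus the 3 lowest, and the KDM5A cDNA library, transduced with pLenti, was the nearest to the untreated level. SCD stood at 16.3 and 15.2 CPM with 1 and with both shRNAs, at 180 CPM with CPI-455 and at 146 CPM with KDM5A cDNA. These 4 libraries also had erlotinib. Serum after transduction is given as 10% for every transduced library. The pLenti vector, the KDM5A cDNA and erlotinib from day 6 after transduction occur together in 1 library only. Their parts cannot be told apart and were not tested.

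**Figure D4:**
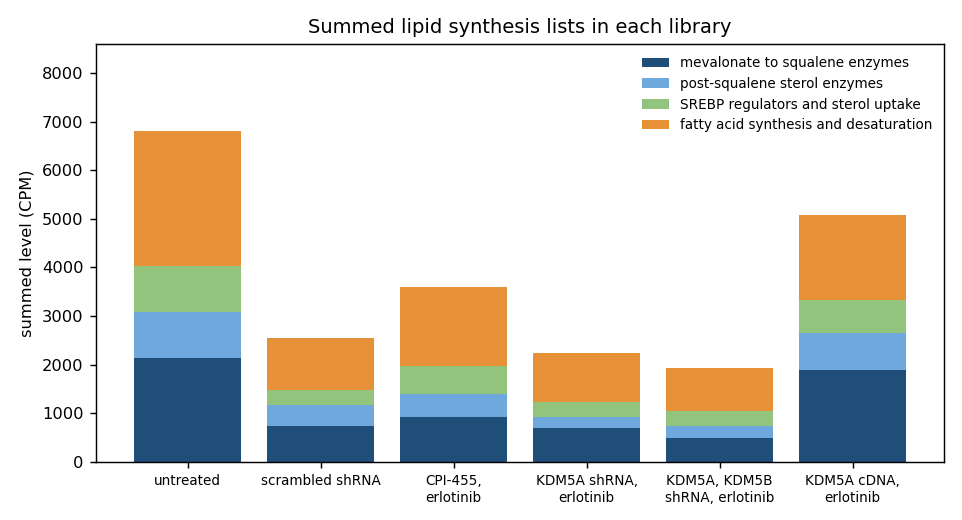
Summed level (CPM) of the 4 lipid synthesis lists in each of the 6 libraries, stacked by list, 1 library per bar and so without error bars. The untreated bar reaches 6812 CPM, the KDM5A cDNA bar 5079 CPM, and the 3 shRNA libraries lie between 1932 and 2547 CPM.

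Transduction was also compared across all 6 libraries, 4 transduced and 2 not, with erlotinib as a covariate. In edgeR's quasi-likelihood test 0 of 10445 genes were higher (0%) and 0 lower (0%) at a Benjamini-Hochberg adjusted p under 0.05. At an unadjusted p under 0.05 there were 648 genes, and DESeq2 called 0 with 381 at that level. SREBF1 had a log2 fold of -1.60 (SE 0.33, adjusted p 0.782 in edgeR). SCD had a log2 fold of -2.69 (SE 1.07, adjusted p 0.782 in edgeR). The libraries differ in their KDM5 manipulation, which enters the spread, and serum goes with virus in this fit as well.

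RPPH1, the RNA component of RNase P, was among the 15 genes with the largest increase. It had 57 UMIs in the scrambled and 14 in the untreated library, or 44.0 and 3.54 CPM, with a log2 ratio of 3.64 (interval 2.78 to 4.60). As background, the promoter of RPPH1 is the H1 promoter that drives the hairpin in pLVTHM. The transcript stood at 57.6 CPM with KDM5A shRNA and 81.3 CPM with both shRNAs, at 1.14 CPM (1 UMI) with CPI-455, and it had 0 UMIs with KDM5A cDNA, where 3 counts would be 5.08 CPM. The 3 libraries made with pLVTHM were thus above the other 3. Whether the UMIs came from the vector or from the chromosomal gene was not tested. At least 1 RPPH1 UMI was seen in 23 of 263 scrambled cells (8.75%, exact binomial interval 5.62% to 12.8%, median depth 3343 UMIs) and in 13 of 1166 untreated cells (1.11%, 0.595% to 1.90%, median depth 1493.5 UMIs). At 1000 UMIs per cell the shares were 3.60% and 0.365%, and with barcodes merged 4.50% and 0.414%. A cell without such a UMI cannot be taken as untransduced at this depth, nor a cell with one as transduced.

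**Figure D5:**
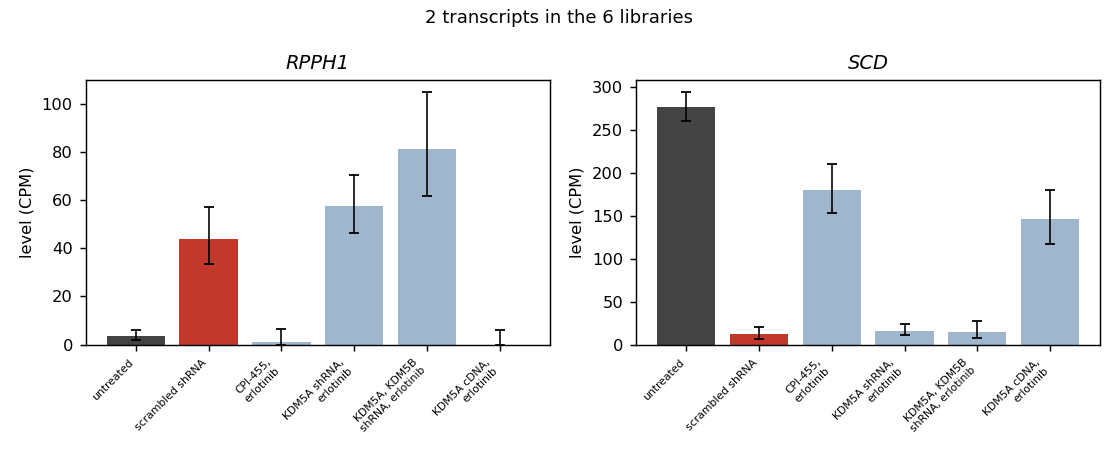
Levels (CPM) of RPPH1 and SCD in the 6 libraries, 1 library per bar, with 95% Poisson intervals of counting error. RPPH1 is at 44.0 CPM or above in the 3 libraries with pLVTHM and at or below 3.54 CPM in the others, and SCD is at or below 16.3 CPM in those 3 and at 146 CPM or above in the others.

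Genes that sense and answer a virus were compared next. Of the 43 interferon response genes, 39 had a UMI but only 9 reached the level for a test, of which 0 were called higher (2.57% of all genes) and 1 lower (4.8% of all genes; IFI16, a DNA sensor, at 18.5 and 42.7 CPM, with the call lost when cells were thinned to 1000 UMIs). ISG15, a ubiquitin-like protein that interferon induces, was at 49.4 CPM in the scrambled and 28.1 CPM in the untreated library (log2 ratio 0.82), without a call. IFIT1 had 3 and 9 UMIs, or 2.32 and 2.27 CPM, which is the floor of 3 counts in the scrambled library. Among 8 tested virus and nucleic acid sensors 0 were called, against 2.57% higher and 4.8% lower of all genes tested. MB21D1, which encodes cGAS, was at 84.2 and 79.6 CPM, and EIF2AK2, the kinase PKR of the interferon list, at 195 and 176 CPM. The 7 tested p53 targets held 0 calls, against the same shares of all genes tested. Below a log2 ratio of 0 lay 6 of the 7, as did 3557 of all 6729 genes tested. The sum of the p53 list had a log2 ratio of -0.55 (interval -0.67 to -0.42). MDM2 was at 63.3 and 68.0 CPM, BAX, which promotes apoptosis, at 66.4 and 131 CPM (log2 ratio -0.98), and RPS27L at 98.1 and 184 CPM (-0.91). Among 6 tested NF-kB and inflammatory genes 2 were called lower (33.3%, against 4.8%), the complement gene C3 (13.9 and 70.5 CPM) and LCN2, a siderophore-binding protein (158 and 349 CPM).

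The cell cycle genes differed in both directions. Of 60 tested S phase genes 5 were called higher (against 2.57% of all genes) and 0 lower, with a median log2 ratio of 0.36. They were ORC1, SLBP, TIPIN, CCNE1 and MCM10, with log2 ratios from 1.23 to 1.01. Each of the 5 lost its call in at least 1 alternative, CCNE1 and MCM10 already with TMM scaling (both 0.99). PCNA, the sliding clamp of replication, was at 543 and 394 CPM (log2 ratio 0.46). Of 58 tested G2/M genes 10 were called lower (17.2%, against 4.8%) and 1 higher, with a median of -0.59. TOP2A, a topoisomerase of mitotic chromosomes, was at 239 and 685 CPM, CENPF at 222 and 539 CPM and PIF1, a helicase, at 8.50 and 54.6 CPM. UBE2S, which extends ubiquitin chains for the anaphase-promoting complex, was the 1 called higher, at 69.5 and 25.3 CPM, and lost its call with cells thinned to 1000 UMIs (log2 ratio 0.40). With equal weight per cell, 4 of the G2/M genes were called lower in place of 10, and CENPF, PLK1, CENPE, HMMR and DLGAP5 were among those that lost the call. MKI67 was at 348 and 494 CPM, without a call. HIST1H4C, a replication-dependent histone, was lower, at 388 and 1890.5 CPM (log2 ratio -2.29). At 1000 UMIs, 26.6% of scrambled and 41.7% of untreated cells held 10 or more G2/M UMIs, and 28.4% and 17.2% held 10 or more S phase UMIs. With barcodes merged the shares were 29.7% and 36.7% for G2/M, and 27.5% and 17.5% for S phase. At the same depth 0 to 2 G2/M UMIs were seen in 11.7% of scrambled and 27.0% of untreated cells (9.46% and 28.8% merged).

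Further genes stood among the 15 lowest. JUND, an AP-1 factor, was at 13.9 CPM in the scrambled and 120 CPM in the untreated library (log2 ratio -3.11, interval -3.88 to -2.44), while JUN was at 141 and 174 CPM. AGR2, a disulfide isomerase of secretory epithelia, was at 21.6 and 195 CPM, and FGFBP1, which carries FGFs, at 6.95 and 61.2 CPM. MALAT1, an abundant nuclear noncoding RNA, had 1506 and 22143 UMIs, or 1163 and 5596 CPM (log2 ratio -2.27). In the other 4 libraries MALAT1 was between 3606 and 5575 CPM, so the scrambled library was the lowest of the 6. NEAT1, another nuclear RNA, was at 196 and 403 CPM, and between 594 and 1156 CPM in the other 4, and lost its call with cells thinned to 1000 UMIs (log2 ratio -0.92). MALAT1 was seen in 57.2% of scrambled and 97.3% of untreated cells at 1000 UMIs (59.5% and 97.0% merged).

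Pseudogenes held a large part of the genes called higher. Of 135 tested pseudogenes, 45 were called higher (33.3%), against 79 of 6103 protein-coding genes (1.29%). Of all UMIs, the 135 together held 0.955% in scrambled and 0.675% in untreated cells. Their share in the other 4 libraries was between 0.948% and 2.20%, so the untreated library was the lowest. RPS2P46 was at 233 and 34.9 CPM, RPL31P12 at 79.6 and 10.4 CPM and KRT18P67 at 60.3 and 5.31 CPM. Such copies are nearly identical to their parent genes, and how reads were shared between them is not given in the sources used here, so their values are uncertain. The same holds for H3F3A (42.5 and 3.54 CPM) and RPL17 (109 and 16.9 CPM). Of 69 tested ribosomal protein genes, 6 were called lower, namely RPS29, RPL39, RPS28, RPL37, RPS27 and RPL36 (8.70%, against 4.8% of all genes), and 3 higher (against 2.57%), among them RPL17 and RPL3. With cells thinned to 1000 UMIs, RPS27 (log2 ratio -0.92) and RPL36 (-0.94) lost the call. Among 50 tested genes whose median coding transcript is at most 500 bases, 10 were called lower (20%) and 0 higher. With a median over 500 and up to 750 bases, 37 of 803 genes were called lower (4.61%) and 10 higher. Of the 40 tested lipid synthesis genes 6 have a median of at most 750 bases. The part of mapping and of transcript length in these calls was not tested.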

How the data were processed

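The authors deposited raw counts: 1 table per library gives UMIs, as integers without normalization, for gene symbols in rows and barcodes in columns. STAR, FastQC and the build GRCh37.p13 (hg19) are named in the submitters' processing notes. The counting tool and the way barcodes were chosen are not given in the sources used here. From these files, barcodes with at least 500 UMIs and at most 20% mitochondrial UMIs were kept, and their UMIs were summed per gene and scaled to CPM. No doublet caller was used. The ratio of 2 libraries has the exact conditional 95% interval of a ratio of Poisson counts (Clopper-Pearson, scipy 1.17.1), and no p-value is given for the pair. Depth limits low genes: 3 counts are 2.32 CPM in the scrambled and 0.758 CPM in the untreated library. To compare cells of unequal depth, 1000 UMIs were drawn at random per cell, and shares have exact (Clopper-Pearson) intervals. Transduction over 6 libraries was tested on summed counts with edgeR 4.0.16 (TMM, filterByExpr, robust quasi-likelihood, Benjamini-Hochberg), and DESeq2 1.42.0 was an alternative. Both procedures were run on simulated data. For the pair the simulated counts held Poisson error only, so that run cannot speak to variation between libraries. Gene types and transcript lengths came from GENCODE 29 by symbol, which matched 93.6% of the genes tested, and no coordinates were taken from it.

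The genes compared and the 50 lists were chosen with earlier results of these data known. Named genes are KDM5A, KDM5B, EGFR, members of the 15 highest and 15 lowest when ranked by whichever interval bound lay closer to 0, and in each list up to 6 members with the most UMIs together with called members. NKX2-1, GGPS1, PMVK, ELOVL6, SCAP and the low-level interferon and marker genes were named after their values were seen. Alternatives covered scaling, the choice of barcodes, thinning, equal weight per kept barcode and the level filter. Merging of barcodes that share 11 bases and leaving out pseudogenes were added after the data were seen. Some members of the lists enter the counts and sums and are not reported here by name.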

Additional observations from a re-analysis of the deposited data

How the results depend on the processing

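No paired analysis was possible because each condition has 1 library and the labels give no replicate numbers. The 27 lipid synthesis genes called lower became between 20 and 31 under 10 alternatives. The log2 ratio of the summed lipid lists moved beyond its interval in 1, to -1.47 with equal weight per kept barcode. Genes called higher numbered 278 with cells thinned to 1000 UMIs, 58 at a mean of at least 50 CPM and 836 with no filter on level, and genes called lower 154 and 922 in the last 2. Called members of all lists fell to 67 at 50 CPM. S phase genes called higher were 3 with TMM scaling, 9 when thinned and 2 at 50 CPM. G2/M genes called lower were 4 with equal weight per kept barcode. Across scalings the median log2 ratio lay between -0.06 and -0.02. The transduction term gave 4 genes higher and 12 lower with no filter on low counts; leaving out 1 library gave between 0 and 3 higher and between 0 and 6 lower, with 3 and 2 without CPI-455 and 2 and 6 without KDM5A cDNA. The share of cells with a lipid UMI was 63.9% in scrambled and 94.3% in untreated cells at 500 UMIs, and 94.3% in scrambled cells unthinned, where depth differs. Of 124 named genes with a call, 36 lost it under at least 1 alternative and 0 changed sign. The cause was not tested. The limits of 1 library a side, unequal depth, split barcodes and serum that goes with virus hold for every value of the pair.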

Other observations

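Several smaller groups have not yet been described. Among 9 tested polyamine genes 2 were called higher (2.57% of all genes tested were), ODC1, the decarboxylase that starts polyamine synthesis (261 CPM in the scrambled and 111 CPM in the untreated library), and SRM, the spermidine synthase (166 and 70.5 CPM). SAT1, which acetylates polyamines for breakdown, was called lower (31.7 and 73.0 CPM). Of 12 tested FOXO and quiescence genes 3 were called lower (25%, against 4.8% of all genes tested): CCNG2 (7.73 and 43.5 CPM), YPEL3 (26.3 and 60.9 CPM) and YPEL5 (13.9 and 31.8 CPM). YPEL3, YPEL5 and SRM each lost the call in at least 1 alternative. Among 13 heat shock genes 1, the constitutive chaperone HSPA8 (1021 and 452 CPM), was called higher, against 2.57% of all genes tested. Among 22 ribosome biogenesis genes 1 was called higher, NOLC1 (360.0 and 159 CPM), against 2.57% of all genes tested. Above a log2 ratio of 0 lay 19 of the 22, as did 3172 of all 6729 genes tested.

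Among 27 tested amino acid response genes 4 were called lower (14.8%, against 4.8%), with TRIB3, a pseudokinase of the stress response, at 19.3 and 73.5 CPM, while ATF4 was at 209 and 328 CPM without a call. Among 22 lysosome genes 3 were called lower (13.6%, against 4.8%), with the protease CTSD at 156 and 468 CPM. ERBB3, a partner of EGFR, was called lower, at 29.4 and 73.0 CPM. The 13 tested MAPK output genes held 0 calls, against 2.57% higher and 4.8% lower of all genes tested. On that list DUSP4 was at 100.4 and 133 CPM and CCND1 at 614 and 604 CPM. SFRP1, a secreted Wnt antagonist chosen after its values were seen, was at 98.1 CPM in the scrambled library, 33.4 CPM in the untreated library and between 12.4 and 16.9 CPM in the other 4.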
